A study of Mus musculus with 9 samples.

Results

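The 8 genes described here encode calcium-binding proteins: the cytosolic buffers Calb1 (calbindin), Calb2 (calretinin) and Pvalb (parvalbumin), the EF-hand proteins Necab1 and Necab2, the calmodulin-like Caln1 (calneuron), and the neuronal calcium sensors Hpca (hippocalcin) and Ncald (neurocalcin delta). They were chosen by name, and all 8 were among the 21457 genes measured in single nuclei of the adult mouse spinal cord. Nuclei came from Chat-IRES-Cre::Sun1-sfGFP mice (Chat-iCre:+/wt; SUN-SfGFP:+/wt) aged 8 weeks, untreated, in which Cre made from the Chat locus switches on a green nuclear envelope protein. Because Cre acts once and for good, cells that made Chat only earlier in life are tagged too. GFP+ nuclei from 12 mice, in 3 pools of 4 (replicate 1 both sexes, replicate 2 male, replicate 3 female), were sequenced as cervical, thoracic and lumbar/sacral tissue, giving 9 libraries. Each sex alone had 1 pool, so no test of sex was possible.

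Calcium enters motor neurons (MNs) through voltage-gated channels and glutamate receptors, and buffers, pumps and stores set how far and how long its level rises. Buffers bind calcium and blunt the rise, whereas sensors change shape when they bind it and act on membranes, channels or enzymes. Low levels of calbindin and parvalbumin in most spinal and hypoglossal MNs, against higher levels in the eye-muscle MNs that are spared in amyotrophic lateral sclerosis, are a long-known feature of these cells. Lower levels of NCALD have been linked to protection in spinal muscular atrophy.

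The authors labelled 16042 cholinergic nuclei, 5054 of skeletal MNs (clusters S1 to S3), 5613 of visceral MNs (V1 to V10) and 5375 of cholinergic interneurons (I1 to I8). S1 is the Type 3, S2 the alpha and S3 the gamma skeletal type. Levels below are corrected counts, that is, whole numbers made by a model that evens out depth, summed over the nuclei of a group in 1 library and scaled to a total of 1000000 (CPM). Median totals per nucleus were 4712 to 7175 in lumbar/sacral libraries and 7087 to 16127 in the others, so depth moved with region. Of 8 class markers given here, Tns1, Prph and Isl1 were highest in skeletal MNs, Zeb2 and Fbn2 in visceral MNs, and Pax2 and Mpped2 in interneurons. Nos1, listed as visceral, was at 446 CPM ± 62.0 in interneurons and 208 ± 34.7 in visceral MNs. Tns1, was at 381 CPM ± 61.3 in skeletal and 31.3 ± 3.46 in visceral MNs, Zeb2 at 387 ± 138 in visceral and 12.6 ± 16.1 in skeletal MNs, and Pax2 at 211 ± 35.3 in interneurons and 7.03 ± 4.73 in skeletal MNs (SD, n = 9 libraries). In 66 nuclei (0.411%) the barcode sequence also occurred in another library.

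Some libraries stood apart before any comparison. Hoxc5, a gene of rostrocaudal identity, was at 25.4 and 22.5 CPM in the libraries labelled cervical of replicates 1 and 3 and at 85.3 and 84.2 CPM in those labelled thoracic, but at 73.3 CPM in the library labelled cervical and 13.9 CPM in the library labelled thoracic of replicate 2. The rostral labels of replicate 2 thus go against this gene, and regions were compared as lumbar/sacral against both rostral levels together, a contrast whose means do not change if the 2 labels are exchanged. The alpha nuclei of the library labelled cervical replicate 2 (71 nuclei) also stood apart. In them 5 visceral and interneuron markers (Zeb2, Fbn2, Nos1, Pax2 and Mpped2) summed to 391 CPM, against 4.40 to 93.0 CPM in the other 8 libraries, and Tns1 was at 80.5 CPM against 311 to 450. The alpha markers were mixed in these nuclei. Stk32a was below the other libraries (101 against 172 to 545 CPM), whereas Rbfox3 (200 against 107 to 333) and Sv2b (187 against 172 to 422) lay within their range. Because of the markers that departed, results on alpha MNs were also computed without that library. Its 71 alpha nuclei are among its 166 skeletal nuclei, and fits between classes kept it except where replicate 2 was left out as a whole. The lowest skeletal value of Caln1 (838 CPM) and the highest of Necab1 (29.5 CPM) given below are from it.

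Detection differed widely among the 8 genes, with the 3 longest genes found in the most nuclei (build GRCm38, GENCODE M21). The 5 members that span 10.5 to 30.7 kb were detected, by at least 1 corrected count, in 0.866 to 5.32% of nuclei, and the 3 that span 198 to 478 kb in 21.5 to 56.8%. Calb1 (chromosome 4: 15881264 to 15908064, 26.8 kb) was found in 139 of 16042 nuclei, and Ncald (chromosome 15: 37366175 to 37792570, 426 kb) in 9110. Within each of these groups detection did not follow span: Hpca, the shortest gene, was at 5.32% and Calb1 at 0.866%, and Caln1, the longest, was found in 8028 nuclei, fewer than Ncald. The part of span in detection was not tested. Genes called scarce or low further below are so in CPM, which is not scaled by span. Here the genes are ranked per kb of span. On that scale Caln1 led in skeletal MNs, at 2.32 CPM per kb, ahead of Hpca at 0.277 and Ncald at 0.203 CPM per kb. Pvalb (0.155) and Necab2 (0.113) stood above Necab1 (0.0517) there, the reverse of their order in CPM. Hpca, the shortest gene, led in visceral MNs at 1.06 CPM per kb, where Ncald was at 0.348. In interneurons Hpca (0.675 CPM per kb), Necab1 (0.628) and Ncald (0.609) were close. Calb1 was lowest in all 3 classes, and reached 0.0995 CPM per kb only in interneurons, against 0.0193 (skeletal) and 0.0303 (visceral) in MNs.

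**Figure D1:**
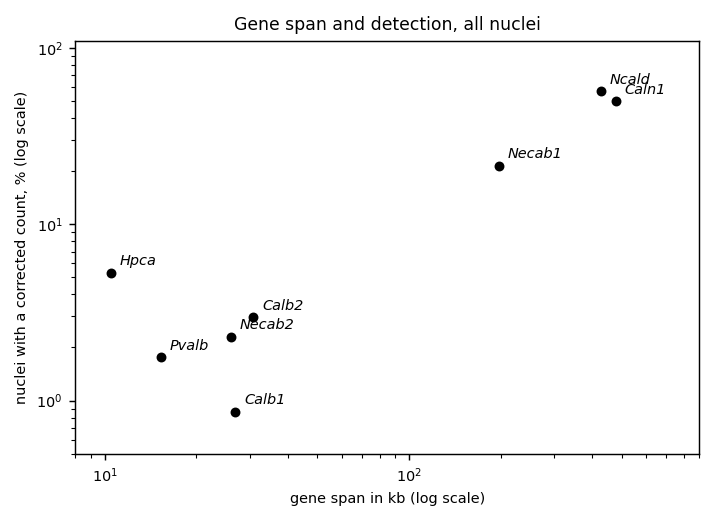
Share of the 16042 nuclei with at least 1 corrected count (y axis, percent, log scale) against the span of the gene (x axis, kb, log scale), 1 point per gene. The 3 genes of 198 to 478 kb lie at 21.5 to 56.8% of nuclei and the 5 genes of 10.5 to 30.7 kb at 0.866 to 5.32%.

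Over the 21 clusters each gene had its own pattern, and 6 of the 8 peaked in interneurons. Calb1, Necab2 and Ncald were highest in I1, Necab1 and Pvalb in I2, Calb2 in I8, Caln1 in S1 and Hpca in V6. The mean CPM in the highest cluster was 8.74 for Calb1, 42.7 for Calb2, 12.6 for Pvalb, 231 for Necab1, 8.52 for Necab2, 1240 for Caln1, 17.6 for Hpca and 479 for Ncald. Neighbours in the order of clusters were called apart where the mean difference within libraries was larger than its SD. Necab1 had 6 such steps among 20, Caln1 and Ncald 3 each, Calb1, Calb2 and Pvalb 1 each, and Necab2 and Hpca none. Most orders are thus not resolved. The highest cluster was apart from the next only for Calb2 (I8 over I3) and Pvalb (I2 over S1). For the rest, the peak named above was not resolved from the next cluster, such as I1 from V10 for Ncald (63.8 CPM ± 82.1).

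**Figure D2:**
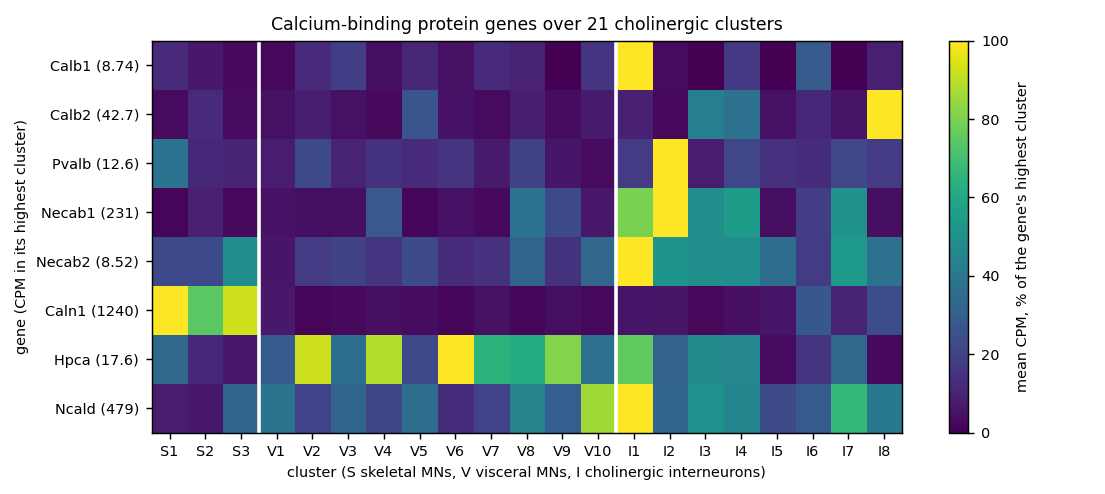
Mean CPM of the 8 genes (rows) in the 21 clusters (columns), as a percent of each gene's highest cluster, whose CPM stands in brackets after the gene. Caln1 is high in the 3 skeletal clusters, Necab1 in I1 to I4 and I7, Calb2 in I8 and Hpca across several visceral clusters.

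The 3 classical buffers were scarce in MNs. Calb1 ranged from 0 to 1.38 CPM in skeletal MNs (median 0.342, n = 9 libraries), from 0.257 to 1.36 in visceral MNs (median 0.869), and from 1.42 to 3.95 in interneurons (median 2.58). Every interneuron value lay above every skeletal and visceral one. Within libraries Calb1 was lower in skeletal MNs than in interneurons in 9 of 9 by 2.15 CPM ± 0.891 (exact two-sided sign-flip test, p = 0.00391, the smallest that 9 libraries allow, unadjusted). The interneuron level came mainly from I1, at 8.74 CPM ± 5.49, where 71 of 1520 nuclei had a count. No count was seen in 756 nuclei of I3, 584 of I5, 247 of V9 and 160 of I7, which allows shares of nuclei with a count of up to 0.397, 0.514, 1.21 and 1.88% (counting error only) and does not bound the share that expresses the gene.

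Calb2 was at 0, 1.70 and 5.20 CPM (lowest, median, highest library) in skeletal MNs, at 0, 1.22 and 10.1 in visceral MNs and at 3.09, 9.40 and 12.8 in interneurons. Skeletal and interneuron ranges overlapped across libraries, yet in each of the 9 libraries the interneurons had the higher level, with a mean gap of 6.47 CPM ± 3.45 (same exact test, p = 0.00391). In the fit over all genes the log2 fold change was -0.93 ± 0.15 (SE; limma, adjusted p = 8.36e-05), short of the 1 log2 unit required for a call. Calb2 passed the filter of that fit (10 CPM in 3 sums) only through interneurons, its highest skeletal value being 5.20 CPM. I8 had the highest level, at 42.7 CPM ± 18.0 (n = 8 libraries), and 103 of the 336 corrected counts in interneurons. A count was seen in 29.9% ± 13.5 of its nuclei, or 19.4% ± 12.2 after nuclei were thinned to 4600 corrected counts. Nuclei below that total, 8.63% of all, were left out of every thinned share. They were 44.1% of the nuclei of lumbar/sacral replicate 1 and 13.6% of those of lumbar/sacral replicate 3. I3 (18.4 CPM ± 10.3) and I4 (16.1 ± 7.70) followed and did not differ beyond their spread.

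Pvalb stood at 0.786, 2.34 and 4.22 CPM in skeletal MNs (lowest, median, highest), 0.535, 1.67 and 2.49 in visceral MNs and 1.25, 3.47 and 5.34 in interneurons. The 3 classes overlapped. Its highest cluster, I2, was at 12.6 CPM ± 6.29 and above the next, S1, in 8 of 9 libraries. After thinning, a nucleus held a count of any of the 3 buffers in 2.32% ± 1.15 of skeletal, 2.45% ± 1.45 of visceral and 6.91% ± 1.67 of interneuron nuclei, and in 20.8% ± 10.7 of I8. For comparison, 5 genes of glia and vessels, which neurons should lack, had a count, before thinning, in 0.383% (Aqp4), 0.504% (Csf1r), 0.524% (Gfap), 0.744% (Flt1) and 7.86% (Cx3cr1) of nuclei. The class shares count any of 3 genes after thinning, whereas each of these 5 is a single gene before thinning, so they are not on 1 scale. The class shares are not read as shares of cells that express a buffer.

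Necab2, a partner of metabotropic glutamate and adenosine receptors, was likewise low, at 0.393 to 5.28 CPM in skeletal MNs, 0.646 to 3.25 in visceral MNs and 3.16 to 6.89 in interneurons. It was lower in visceral MNs than in interneurons in 9 of 9 libraries, by 3.16 CPM ± 1.73 (p = 0.00391, exact sign-flip test). The family's other member is Necab1. It was at 1.58, 9.41 and 29.5 CPM in skeletal MNs, at 15.0, 25.5 and 40.7 in visceral MNs and at 105, 121 and 147 CPM in interneurons. Interneurons lay apart from both MN classes, whereas the MN classes overlapped.

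**Figure D3:**
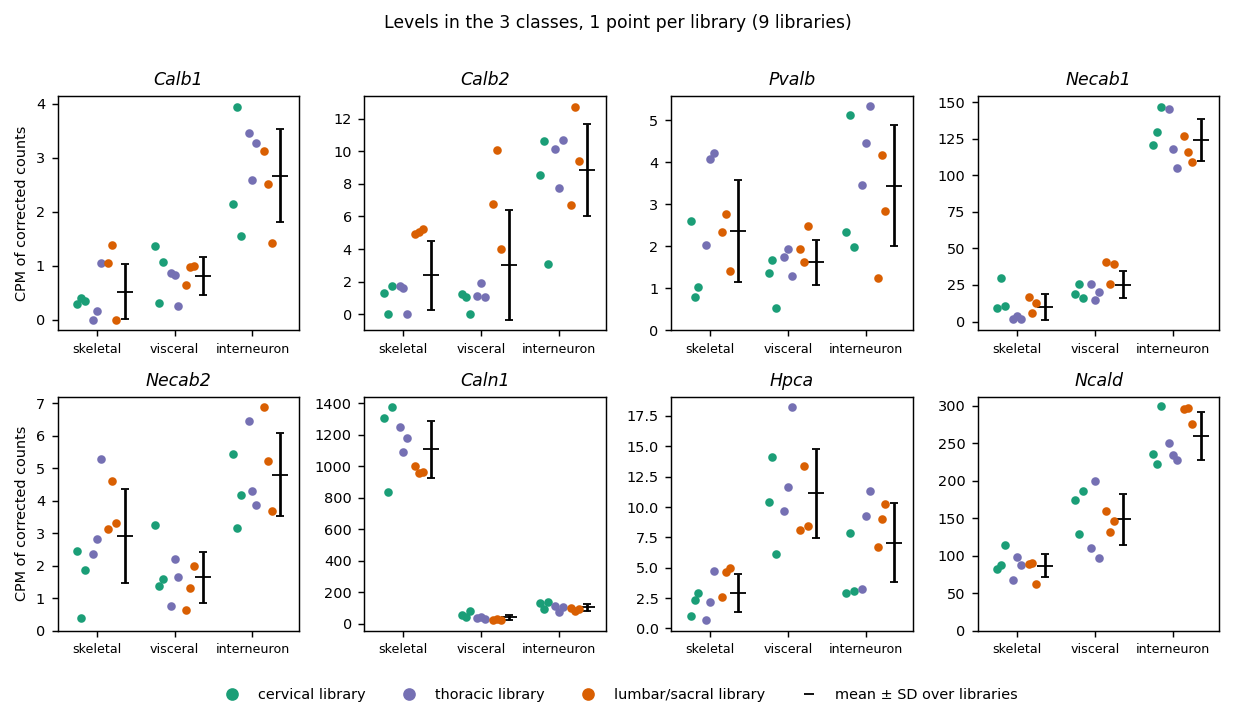
CPM of each gene (y axes, linear) in skeletal MNs, visceral MNs and interneurons, 1 point per library coloured by labelled region, with the mean and SD over 9 libraries in black. Caln1 separates skeletal MNs from the rest, Necab1 and Calb1 separate interneurons, and Hpca is lower in every skeletal than in every visceral library.

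Caln1, a membrane-bound calcium sensor that restrains Golgi enzymes and channels, was the skeletal gene of the set. It was at 838, 1088 and 1375 CPM in skeletal MNs, at 22.9, 35.1 and 78.9 in visceral MNs and at 75.7, 102 and 141 CPM in interneurons. The lowest skeletal library was above the highest of either other class. A count of Caln1 was seen in 98.1% ± 2.18 of skeletal, 22.5% ± 11.4 of visceral and 37.5% ± 9.96 of interneuron nuclei, and in 95.8, 14.5 and 29.1% after thinning. Of the 24 pairs of gene and class, the male and female pools had ranges apart in 1, Caln1 in interneurons, at means of 83.5 CPM (male) and 116 CPM (female). The share of all genes with ranges apart was not counted. With 1 pool of each sex, this is not read as a difference between sexes. Among interneurons, I6 (341 CPM ± 56.9) and I8 (298 ± 104) held the most, and did not differ beyond their spread.

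Hpca ran the other way. It was at 0.679, 2.60 and 4.97 CPM in skeletal MNs against 6.15, 10.4 and 18.2 in visceral MNs, with no overlap, and 2.92, 7.90 and 11.3 in interneurons. Ncald was at 62.9, 87.6 and 114 CPM in skeletal MNs, 97.5, 147 and 200 in visceral MNs and 222, 250 and 300 CPM in interneurons, so that interneurons lay apart and the MN classes overlapped. I1 (479 CPM ± 30.1) and V10 (411 ± 74.0, n = 7 libraries) were its highest clusters.

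Skeletal and visceral MNs were compared by limma with the library as a block, a gene being called at an adjusted p under 0.05 and a log2 fold change of at least 1. Of the 8 genes, 4 passed the filter of 10 CPM in 3 sums. Hpca did so only through visceral MNs, where it was high, since its highest skeletal value was 4.97 CPM. Its call was the same in a fit without the filter (limma, adjusted p = 2.99e-05). Caln1 was called higher, where 6.38% of all 10990 genes were, with a log2 fold change of 4.68 ± 0.11 (SE, adjusted p = 9.61e-12). Necab1 (-1.13 ± 0.20, adjusted p = 0.000314, lower in 8 of 9 libraries) and Hpca (-1.02 ± 0.12, adjusted p = 7.27e-06, 9 of 9) were called lower, where 5.7% of all genes were, both close to the required fold. Ncald was lower in 9 of 9 libraries by a log2 fold change of -0.73 ± 0.09 (adjusted p = 1.48e-05), short of that fold. With a pseudocount of 20 Necab1 moved to -0.61 and Hpca to -0.44, and without replicate 1 Hpca moved to -0.95, which ended those calls. Since the clusters were drawn from these same nuclei and genes, such tests describe the labels.

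Against interneurons 4 genes were tested as well. Caln1 was called higher in skeletal MNs (log2 fold change 3.35 ± 0.06, adjusted p = 1.38e-14, limma), where 5.92% of 10833 genes were. Necab1 (-3.27 ± 0.20, adjusted p = 3.49e-09) and Ncald (-1.54 ± 0.08, adjusted p = 3.27e-10) were called lower, where 5.13% were, each in 9 of 9 libraries. These 3 calls held under every alternative run. Markers of other neurons and of glia also differed between the classes. Slc17a6, Gad1, Gad2 and Slc6a5 together summed to 293 CPM ± 22.2 in interneurons, 46.1 ± 13.5 in visceral and 32.8 ± 4.75 in skeletal MNs, and 9 non-neuronal markers to 54.4 ± 10.6, 60.4 ± 11.7 and 89.2 ± 9.71 CPM. Their part in these differences was not tested.

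Within skeletal MNs, Ncald marked the gamma type. It was at 8.58, 28.9 and 81.5 CPM in alpha MNs and at 125, 146 and 210 CPM in gamma MNs, with no overlap. Alpha MNs were lower by a log2 fold change of -2.37 ± 0.20 (limma, adjusted p = 2.85e-10), in 9 of 9 libraries. It was the only call among 3 members tested, where 8.12% of 11465 genes were called and 3.29% were called lower. The highest alpha value was that of the library labelled cervical replicate 2. Without it alpha MNs lay between 8.58 and 41.7 CPM, at a mean of 23.9 ± 11.6 (n = 8), and the log2 fold change was -2.59 ± 0.14 (adjusted p = 1.31e-14). S1 MNs, at 26.9 to 49.4 CPM, were also below gamma MNs in 9 of 9 libraries, by 118 CPM ± 22.0 (p = 0.00391, exact sign-flip test). Non-neuronal markers moved the opposite way, summing to 121 CPM ± 33.0 in alpha, 120 ± 14.5 in S1 and 53.4 ± 14.9 in gamma MNs, most of it Mbp (89.3 CPM ± 30.9 in alpha MNs), and their part was not tested.

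Caln1 was high in all 3 types, at 1119 to 1432 CPM in S1, 447 to 1200 in alpha and 907 to 1514 in gamma MNs. S1 was above alpha in 9 of 9 libraries, with a log2 fold change of 0.48 ± 0.10 (adjusted p = 0.000620), and alpha below gamma in 7 of 9, with -0.36 ± 0.10 (adjusted p = 0.00672, limma), neither reaching the fold for a call. The lowest alpha value was again that of the library labelled cervical replicate 2. Without it the log2 differences were 0.37 ± 0.07 and -0.26 ± 0.07. Ncald, at a log2 difference of 0.42 ± 0.20 between S1 and alpha MNs (adjusted p = 0.136), was then higher in S1 by 0.65 ± 0.14 (adjusted p = 0.000410, limma), still short of the fold.

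Necab1 differed more among alpha libraries than between types. The libraries labelled cervical were at 13.9, 70.7 and 23.0 CPM (replicates 1, 2 and 3), those labelled thoracic at 0.953, 1.32 and 0, and the lumbar/sacral ones at 44.7, 14.3 and 24.1 CPM. By the labels, then, alpha MNs of the limb levels had Necab1 and thoracic ones were near 0, with 2 corrected counts in 197 nuclei. With the rostral labels of replicate 2 exchanged, as Hoxc5 reads them, the cervical and thoracic values overlap, at 13.9, 1.32 and 23.0 against 0.953, 70.7 and 0. That overlap rests on the 70.7 CPM of the library labelled cervical replicate 2, whose alpha nuclei stood apart. Without that library the exchanged values are 1.32 to 23.0 against 0 and 0.953. This pattern was picked out after its values were seen and carries no test. In S1, Necab1 was at 0 to 7.96 CPM and in gamma MNs at 2.08 to 11.7. Necab1 passed the filter through alpha MNs, with no S1 value at 10 CPM. S1 was called lower than alpha, where 5.23% of genes were called and 3.24% were called lower, with a log2 fold change of -1.07 ± 0.31 (limma, adjusted p = 0.0110). That call was lost without cervical replicate 2 (-0.72), without replicate 2 (-0.82), without replicate 1 (adjusted p = 0.0767), without the library block (adjusted p = 0.0603) and with a pseudocount of 20 (-0.61). Alpha against gamma gave 0.85 ± 0.31 (adjusted p = 0.0384), which was not called, and 0.55 ± 0.23 (adjusted p = 0.0528) without cervical replicate 2.

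Some of the scarce members also differed among the types, by exact tests whose p-values are unadjusted. Pvalb was at 2.27, 5.21 and 7.78 CPM in S1 (lowest, median, highest library), from 60 corrected counts, against 0 to 4.40 in alpha and 0 to 3.12 in gamma MNs. S1 was above gamma in 9 of 9 libraries by 3.53 CPM ± 1.92 (p = 0.00391) and above alpha in 8 of 9 by 3.39 ± 2.52 (p = 0.00781, exact sign-flip tests, unadjusted). Hpca had the same order, at 1.32 to 11.3 CPM in S1 and 0 to 3.60 in gamma MNs, higher in 9 of 9 libraries by 4.76 CPM ± 2.72 (p = 0.00391, exact sign-flip test). Necab2 was higher in gamma MNs, at 1.07 to 8.32 CPM, than in alpha MNs, at 0 to 4.77, in 8 of 9 libraries, by 2.28 CPM ± 1.94 (p = 0.00781, exact sign-flip test). Without cervical replicate 2, S1 was above alpha MNs for Pvalb in 7 of 8 libraries by 3.39 CPM ± 2.70 (p = 0.0156, exact sign-flip test), and gamma above alpha for Necab2 in 7 of 8 by 2.43 ± 2.01 (p = 0.0156, same test). In the limma fit without the filter none of these was called. S1 against alpha MNs gave log2 fold changes of 0.62 ± 0.11 for Pvalb (adjusted p = 0.000429) and 0.66 ± 0.17 for Hpca (adjusted p = 0.00901), short of the fold. Alpha against gamma MNs gave -0.41 ± 0.15 for Necab2 (adjusted p = 0.0612). S1 was not fitted against gamma MNs. Calb1 did not exceed 3.49 CPM in any library of any type.

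**Figure D4:**
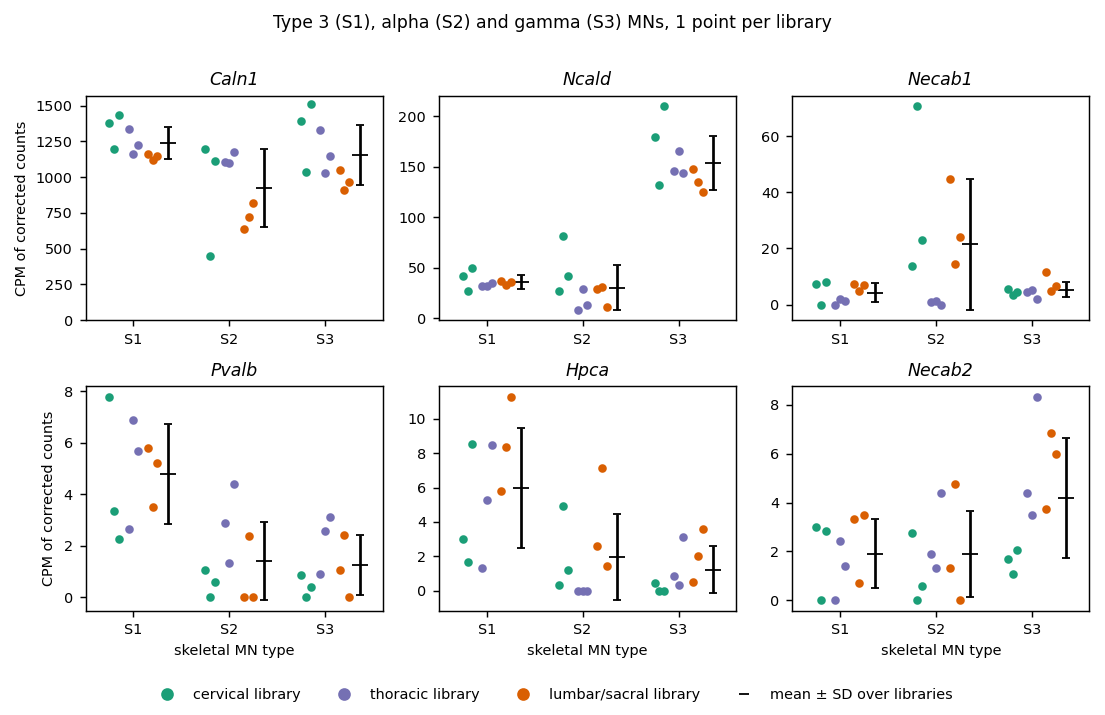
CPM of 6 genes (y axes, linear) in Type 3 (S1), alpha (S2) and gamma (S3) MNs, 1 point per library coloured by labelled region, with mean and SD over 9 libraries in black. Ncald is at 125 to 210 CPM in gamma MNs and at or below 81.5 in the others, and the alpha point farthest from the rest for Caln1, Ncald and Necab1 is the library labelled cervical replicate 2.

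Lumbar/sacral and rostral libraries were then compared within alpha MNs, gamma MNs, visceral MNs and interneurons (limma without a fold minimum). None of the 2 to 4 members tested in each was called, where 0% of 10387 genes were in alpha MNs (245 at an unadjusted p under 0.05), 0.0711% in gamma MNs (0.0508% higher, 0.0203% lower), 4.27% in visceral MNs (2.32% higher, 1.94% lower) and 0.051% in interneurons (0.0204% higher, 0.0306% lower). The difference between the lumbar/sacral effects in alpha and gamma MNs was called for no member either, and for 0% of 11098 genes (280 at an unadjusted p under 0.05).

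Calb2, too low in MNs for that filter, showed the clearest pattern by region. In skeletal MNs it was at 1.30, 0 and 1.71 CPM in the cervical libraries, 1.70, 1.57 and 0 in the thoracic ones and 4.94, 5.07 and 5.20 in the lumbar/sacral ones, which rest on 19, 22 and 22 corrected counts. In visceral MNs it was at 1.22, 1.06 and 0 (cervical), 1.09, 1.94 and 1.03 (thoracic) and 6.78, 10.1 and 3.98 CPM (lumbar/sacral). In both classes every lumbar/sacral library lay above every rostral one (exact two-sided permutation test over 84 groupings, p = 0.0119 in each, the smallest they allow, unadjusted). Since libraries of a replicate share their mice, the regions were also shuffled within replicates, which gave p = 0.0370 in each, the smallest that 27 groupings allow (exact permutation test). Of all genes with a count, 2.18% in skeletal and 4.6% in visceral MNs separated in that direction, and 0.301% in skeletal MNs in the other. Fitted without the filter on low values, the visceral difference was called, with a log2 fold change of 0.96 ± 0.16 (limma, adjusted p = 0.0163), where 1.68% of 20956 genes were called higher.

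Interneurons showed no such step: Calb2 was at 6.68 to 12.8 CPM in their lumbar/sacral and 3.09 to 10.7 in their rostral libraries (p = 0.607, exact permutation test), where 0.98% of genes separated upwards and 1.08% downwards. The lumbar/sacral mean was higher in 16 of 18 clusters that could be compared, all but I3 and I4. V5 moved most, at 20.5 to 29.3 CPM against 0 to 3.74 in 4 rostral libraries, and was singled out after its values were seen. It was the only 1 of the 18 clusters without overlap. In gamma MNs the ranges overlapped (1.20 to 5.63 against 0 to 1.92 CPM), as they did in alpha MNs (2.38 to 17.1 against 0 to 4.83, the same ranges without cervical replicate 2). Slc17a6, a marker of the excitatory neurons around these cells, was also higher on average in lumbar/sacral libraries, at 7.09 to 12.0 against 3.17 to 9.04 CPM in skeletal MNs, 4.48 to 10.0 against 3.03 to 8.29 in visceral MNs and 11.4 to 13.6 against 3.55 to 10.3 in interneurons. Inhibitory markers went both ways. Gad2 in skeletal MNs was lower in lumbar/sacral libraries without overlap (8.04 to 8.30 against 8.64 to 18.0 CPM). Gad1 in visceral MNs had lumbar/sacral and rostral means of 4.57 and 5.47, and Slc6a5 in skeletal MNs 5.30 and 5.85. Slc6a5 had the higher lumbar/sacral mean in visceral MNs (5.36 against 3.59 CPM) and interneurons (116 against 92.9). So did Gad2 in visceral MNs (31.5 against 30.2), all with overlapping ranges. The part of these markers, and of depth, in the Calb2 difference was not tested.

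Necab1 in visceral MNs differed in sign between the sum over all nuclei and the clusters weighted alike. Over all visceral nuclei it was at 18.6, 25.5 and 16.3 CPM in cervical, 26.0, 15.0 and 20.1 in thoracic and 40.7, 25.8 and 39.3 in lumbar/sacral libraries, a log2 fold change of 0.67 ± 0.20 (limma, adjusted p = 0.120). V8 made up 25.8 to 33.4% of lumbar/sacral and 0 to 0.279% of rostral visceral nuclei, and held Necab1 at 88.2 CPM ± 17.6 (n = 3). When the 5 clusters present in all 9 libraries (V1 to V4 and V7) were weighted alike, the sign changed, to -0.68 ± 0.16 (adjusted p = 0.127). V4 alone was at 13.7 to 31.5 CPM in lumbar/sacral and 61.2 to 94.5 in rostral libraries. The lumbar/sacral mean was also lower in V2 (5.36 against 9.87 CPM) and was higher in V1 (15.9 against 8.68), V7 (8.03 against 4.58) and V3 (by 2.79 CPM). Among interneurons, I1, I2 and I7 also had lower lumbar/sacral values without overlap (143 to 165 against 171 to 233 CPM in I1), and I6 higher ones (57.9 to 65.5 against 12.0 to 56.4). These clusters were named after their values were seen. Of 18 clusters compared for Necab1, 1 lay higher and 4 lower in lumbar/sacral libraries without overlap. I7 had only 3 rostral libraries. The share of all genes that separate within a single cluster was not counted, for Necab1 or any other member.

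Caln1 had the lower mean in lumbar/sacral libraries in 14 of 18 clusters, and in 2 of them the ranges did not overlap. In visceral MNs it was at 25.8, 29.3 and 22.9 CPM there, against 55.8, 40.8 and 78.9 in cervical and 35.1, 42.1 and 33.5 in thoracic libraries, with no overlap, where 2.87% of all genes separated in that direction. The log2 fold change was -0.71 ± 0.18 (limma, adjusted p = 0.0721), and it was called without the rostral libraries of replicate 2 (-0.78, adjusted p = 0.0290). In S1 Caln1 was at 1119 to 1161 CPM in lumbar/sacral and 1162 to 1432 in rostral libraries, apart by a narrow gap (p = 0.0357, exact permutation test over 84 groupings, unadjusted). In alpha MNs it was at 635 to 822 against 447 to 1200 CPM (log2 fold change -0.43 ± 0.27, adjusted p = 0.975, limma). Without cervical replicate 2 the alpha rostral libraries were at 1097 to 1200 CPM and did not overlap (-0.65 ± 0.14, adjusted p = 0.746). In gamma MNs Caln1 was at 1053, 907 and 964 CPM in lumbar/sacral libraries and at 1028 to 1514 in rostral ones (-0.33 ± 0.15, adjusted p = 0.816). Ncald differed by -0.24 ± 0.15 in gamma MNs and by 0.01 ± 0.22 in visceral MNs on the log2 scale, neither called. In single clusters it went both ways, lower in lumbar/sacral V5 (99.5 to 125 against 153 to 258 CPM) and higher in I7 (365 to 448 against 171 to 260). Of 18 clusters compared for Ncald, 2 lay higher and 2 lower without overlap.

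**Figure D5:**
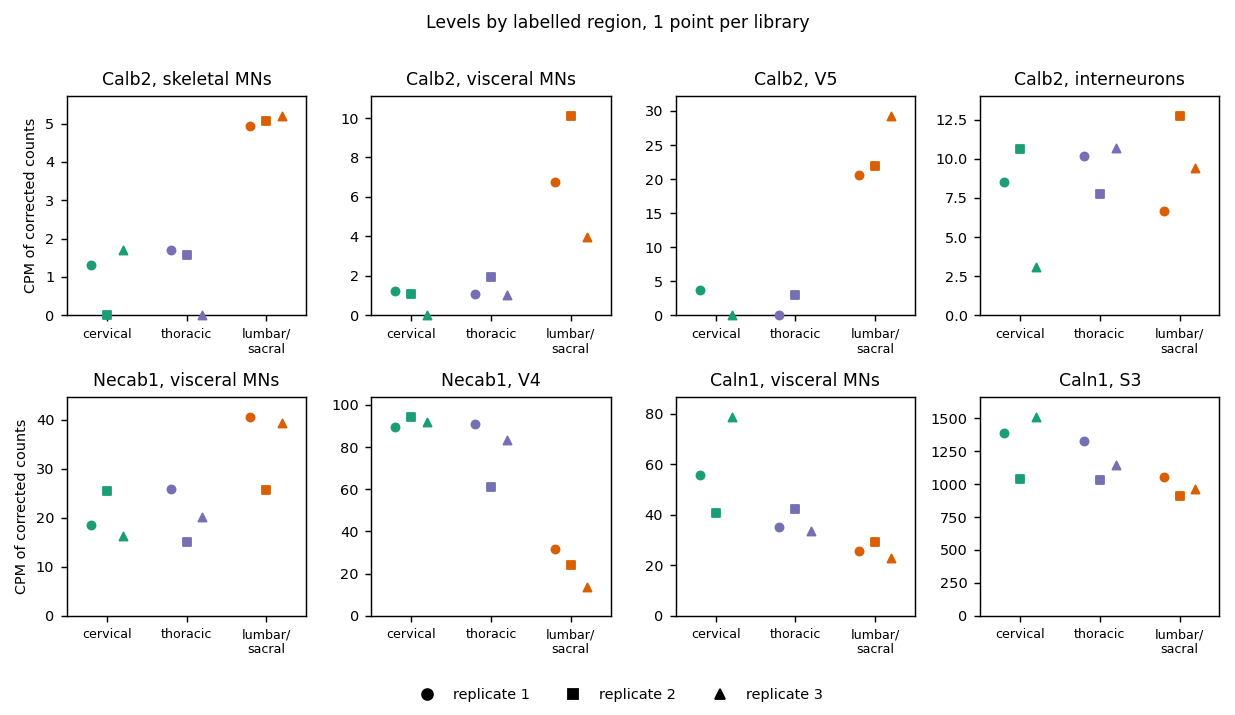
CPM (y axes, linear) of Calb2, Necab1 and Caln1 in selected classes and clusters by labelled region (x axis), 1 point per library, with the marker shape giving the replicate. Calb2 is higher in all 3 lumbar/sacral libraries of skeletal MNs, visceral MNs and V5 but not of interneurons, and Necab1 in V4 and over all visceral MNs goes opposite ways.

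Other genes that handle calcium were taken from 6 lists, chosen with earlier results of these data known. Between skeletal and visceral MNs, 6.38% of all genes were called higher and 5.7% lower. Of 8 further neuronal calcium sensors tested there, 1 was called higher and 4 lower, with a median log2 fold change of -0.94 against -0.04 over all genes. The lower ones included Hpcal4 (4.97 against 27.7 CPM) and Hpcal1 (14.3 against 50.2 CPM), both of the visinin-like branch that Hpca and Ncald also belong to. In the calmodulin and CaBP family 2 of 6 were called higher, Cabp7 (16.1 against 1.13 CPM) and Cabp1 (227 against 102 CPM), and none lower. With a pseudocount of 20 the folds of Hpcal4 (-0.93) and Cabp7 (0.76) fell short of the call. Both genes passed the filter only through the class where they are high.

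Of the genes of the endoplasmic reticulum calcium store, 5 of 13 were called higher and 1 lower in skeletal MNs. Ryr3, a calcium release channel, was at 1181 CPM ± 211 against 231 ± 89.4, and Itpr3, an inositol trisphosphate receptor, at 68.6 ± 23.1 against 1.17 ± 0.933 (n = 9). Itpr3 passed the filter only through skeletal MNs, where it was high. Of 10 genes for extrusion across the plasma membrane, 3 were called higher and 2 lower. The sodium/calcium/potassium exchanger Slc24a3 was at 636 CPM ± 115 against 56.3 ± 16.6, and the calcium pump Atp2b1 at 330 ± 41.0 against 103 ± 19.1. Of 2 S100 genes 1 was higher, S100b (30.4 against 11.4 CPM), a gene that glia express strongly, at a log2 fold change of 1.14 that became 0.68 with a pseudocount of 20 and was then not called. None of 8 mitochondrial calcium genes was called, with 6.38% of all genes called higher and 5.7% lower.

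Against interneurons the sensor list was again lower more often than higher, with 4 and 1 of 7 tested called and a median log2 fold change of -1.33 against 0.02 over all genes. Store genes had 3 higher and none lower of 12, extrusion genes none higher and 3 lower of 11, and the S100 list 1 higher of 2. Of 6 calmodulin and CaBP genes and 8 mitochondrial genes none was called. Over all genes 5.92% were called higher and 5.13% lower.

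Between alpha and gamma MNs few members of these lists were called, but some by wide margins. Itpr1, the main neuronal inositol trisphosphate receptor, was at 226 CPM ± 77.2 in alpha and 13.3 ± 3.86 in gamma MNs (log2 fold change 3.60 ± 0.15, adjusted p = 1.19e-15, limma). Ryr3 was lower in alpha MNs, at 545 ± 180 against 1867 ± 332 CPM. These were the 2 calls among 12 store genes. Of 9 extrusion genes 2 were lower in alpha MNs and none higher, the pump Atp2b4 (27.5 ± 21.5 against 140 ± 30.6 CPM) and the sodium/calcium exchanger Slc8a1 (224 ± 118 against 652 ± 193). Among 6 sensors the potassium channel partners Kcnip4 (3462 against 1276 CPM) and Kcnip1 (241 against 946 CPM) were called in opposite directions. Cabp7 was higher in alpha MNs (24.3 against 7.69 CPM), the only call among 6 of its family, which was lost with a pseudocount of 20 (0.63) and without replicate 3 (0.93). Neither the 2 S100 nor the 7 mitochondrial genes were called, with 4.83% of all genes called higher and 3.29% lower. Without cervical replicate 2 all 7 of these genes were called in the same direction, with log2 fold changes from -2.42 (Atp2b4) to 3.74 (Itpr1), and 1.26 for Cabp7.

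For each member, the 3 genes most like it over the 21 clusters were found by the Pearson correlation of mean log2 CPM with the pseudocount of 5, among 10842 genes. Caln1 was most like Grin3b (r = 0.93), Gal3st1 (0.90) and Ptpn22 (0.90), and Necab1 most like Slc6a11 (0.86), St8sia2 (0.84) and Gm45844 (0.82). Calb2 followed A330008L17Rik (0.86), 4930426D05Rik (0.86) and Slc6a5 (0.85), the glycine transporter. Ncald had Ptprj (0.80), Mboat2 (0.78) and Gria1 (0.75), and Hpca had Wdr47 (0.82), P4ha3 (0.82) and Arl4a (0.81). For the lowest members, where levels are a few CPM, the values were 0.87 for Necab2 with Tcerg1l, 0.81 for Pvalb with Gm2115 and 0.75 for Calb1 with Ccdc3. Among the members themselves the closest pair was Necab1 and Necab2 (r = 0.59) and the most opposed Caln1 and Hpca (-0.63). The clusters share their libraries, and these values are descriptions.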

How the data were processed

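Per the labels and methods, the authors sorted GFP+ nuclei, made 10x Genomics libraries, aligned reads with Cell Ranger 3.1.0 to mm10 pre-mRNA, and clustered nuclei in Seurat after SCTransform. The deposited values are corrected counts, treated here as a score made by a model, so no count model was used. Groups came from the sample labels and the authors' cluster names. Sums of at least 10 nuclei were scaled to CPM, and log2(CPM + 5) was fitted by limma 3.58.1 with a trend in R 4.3.3, for genes that reached 10 CPM in 3 sums or more, with Benjamini-Hochberg adjustment over all genes tested. Class and type fits had the library as a block. Region fits had none.

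Members below the filter were tested by exact sign-flip tests over 9 libraries or permutation over 84 groupings, added once it was known which members failed it, and their p-values are unadjusted. Doublets were treated as the authors left them. Libraries of a replicate come from the same mice, which pairs them: of 27 correlations between same-numbered libraries 21 were above 0.1, from -0.22 to 0.92. The fit was tested on simulated data. Named genes were the 8 members, per list the 2 called genes with the largest fold between skeletal and visceral or alpha and gamma MNs, and the 3 genes most like each member. Members and lists were chosen with earlier results of these data known. The report gives depth as ranges over libraries, and intervals and limits on shares cover counting error only.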

Additional observations from a re-analysis of the deposited data

How the results depend on the processing

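Each comparison was refitted with pseudocounts of 1 and 20, without the filter, with median of ratios scaling, without each replicate, and with or without a block. The exchange of the rostral labels of replicate 2, leaving out its rostral libraries, leaving out cervical replicate 2 and shuffling regions within replicates were chosen after seeing the data. Of 282 refitted values of the 8 members, 258 kept their direction and call, 13 changed sign, 8 lost a call and 3 gained one (Calb2 between skeletal MNs and interneurons at pseudocount 1, and Necab1 and Caln1 between regions in visceral MNs). Hpca was below the filter between skeletal and visceral MNs without replicate 2.

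The number of genes called fell with a pseudocount of 20, to 667 (from 1327) between skeletal and visceral MNs, 626 (from 1197) against interneurons, 488 (from 931) between alpha and gamma MNs and 293 (from 600) between S1 and alpha MNs, where a pseudocount of 1 gave 901. By region the counts were small and unstable. In gamma MNs 7 became 2 (pseudocount 1), 17 (no filter), 3 (median of ratios), 11 (labels exchanged) and 3 (rostral libraries of replicate 2 left out). In interneurons 5 became 2, 3, 11 and 13 under pseudocount 1, median of ratios, labels exchanged and libraries left out, and 1 with clusters weighted alike. Visceral MNs had 428, and 96 with clusters weighted alike. The replicate block gave 1 gene in alpha MNs, 12 in gamma MNs, 737 in visceral MNs and 44 in interneurons, and changed no call of a member. Leaving out a replicate gave 0 to 0 genes in gamma MNs and in interneurons, 0 to 249 in visceral MNs (0 without replicate 3) and, for the difference between alpha and gamma MNs, 0 to 2 (2 without cervical replicate 2).

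The sign changes were in differences near 0 or not called. Necab1 and Ncald in visceral MNs became -0.68 and -0.50 with clusters weighted alike. Ncald by region in alpha MNs was -0.71 to 0.054 when leaving out a replicate and 0.14 without the rostral libraries of replicate 2, and in visceral MNs -0.079 to 0.16, and -0.054 under median of ratios. For the difference between alpha and gamma MNs, Ncald gave 0.025 (pseudocount 20), 0.017 (median of ratios) and -0.42 to 0.28 (replicates left out), and Caln1 -0.26 to 0.10. The cause was not tested. The corrected counts of Calb1, Calb2, Pvalb, Necab2 and Hpca are few, which limits what their absence in a nucleus can show.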
